A study of Mus musculus and Homo sapiens with 4 samples.

Results

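The claudin tight junction family was followed through 10 genes (CLDN1, CLDN3, CLDN4, CLDN7, CLDN8, CLDN9, CLDN10, CLDN11, CLDN12 and CLDN23) in RNA-sequencing libraries labelled VCaP, a human line from prostate cancer, and VCaP ERα, the line overexpressing oestrogen receptor alpha (ERα). The names VCaP and VCaP ERα stand for the libraries so labelled, since marker genes given below put the origin of the first in doubt. The members were found by gene symbol, each stood on 1 entry, and together they made up 10 of the 25932 entries of the human files. VCaP cells were taken at passages 5 to 6 and VCaP ERα cells at passages 4 to 5, both grown in DMEM with serum, and neither label names an oestrogen treatment. ERα was stably expressed, and whether the line is 1 clone is not given in the sources used here. Each condition gave 1 strand-specific library after removal of ribosomal RNA, so the differences have no check by replicates and carry no P-values. Levels are RPKM, that is reads relative to entry length and mapped reads, so they can be compared between genes. Differences are log2 ratios, VCaP ERα over VCaP, after 1 RPKM was added to both, which understates the change of low entries. Where a pair of levels is given, VCaP comes first and VCaP ERα second. The study selected genes with a log2 ratio above 2 to find those that follow ERα, and the same limit, with its mirror at -2, is used here.

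Claudins are 4-pass membrane proteins that polymerise into tight junction strands between epithelial cells. Some seal the space between neighbouring cells, others form channels for small ions or water, and their mixture sets how leaky an epithelium is. Inside the cell their tails bind scaffold proteins such as the ZO proteins, which tie the strands to the actin cytoskeleton. CLDN3, CLDN4 and CLDN7 are abundant in many simple epithelia and carcinomas, and CLDN3 and CLDN4 are receptors of the Clostridium perfringens enterotoxin. Human claudin sequences were not used here.

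The labels were first compared with marker genes, from lists chosen with earlier results of these data known. ESR1, which encodes ERα, stood at 15.7 and 209 RPKM. All 11 prostate luminal genes of a marker list were higher in VCaP ERα, where they lay between 3.16 and 694 RPKM and summed to 1952 RPKM. In the library labelled VCaP they lay between 0 and 8.18 RPKM and summed to 16.2 RPKM, with KLK4 and FOLH1 listed at 0. Of 10 breast luminal genes 7 were lower in VCaP ERα, among them TFF1 (1596 and 7.0 RPKM) and GATA3 (90.5 and 0.633 RPKM). The other 3 were AGR2 (114 and 727 RPKM), SCGB2A2 (listed at 0 and 0.0297 RPKM) and ANKRD30A (0.00756 and 0.0430 RPKM). The 10 genes summed to 2754 and 935 RPKM, with TFF1 the largest part in VCaP and AGR2 in VCaP ERα. Of 5 basal epithelial genes, which summed to 50.1 and 2.85 RPKM, KRT17 was the highest in VCaP (38.9 RPKM) and KRT14 was listed at 0 there. The 6 mesenchymal genes summed to 7.06 and 2.13 RPKM, and most of the VCaP sum was FN1 (5.65 and 0.0723 RPKM, log2 ratio -2.63). The 4 endothelial genes summed to 1.08 and 0.916 RPKM, each below 1 RPKM in both libraries. The epithelial genes KRT8 (1708 and 41.5 RPKM), KRT18 (673 and 46.9 RPKM), KRT19 (1625 and 5.44 RPKM) and CDH1 (122 and 14.4 RPKM) were lower in VCaP ERα, whereas EPCAM was higher (50.7 and 82.6 RPKM). In the library labelled VCaP 4 of the 11 prostate luminal genes reached 1 RPKM. ERG, an oncogene that VCaP cells are known to express through a gene fusion, was at 0.0764 RPKM there, against 104 RPKM in VCaP ERα. These values go against the label, whether the library came from VCaP cells could not be settled, and their part in the claudin differences was not tested. Every ratio below therefore compares 2 libraries, in which a different origin of the cells, fewer cells of a type, less RNA per cell and the presence of ERα cannot be told apart. The log2 ratios are to be read against a median of -0.59 among 9754 entries that reached 1 RPKM in each library.

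The libraries held different claudins. In VCaP the order of levels was CLDN3 (173 RPKM), CLDN7 (147 RPKM), CLDN4 (82.3 RPKM), CLDN9 (21.4 RPKM), CLDN12 (6.54 RPKM), CLDN23 (4.16 RPKM) and CLDN1 (2.46 RPKM), followed by CLDN11 (0.0431 RPKM), with CLDN8 and CLDN10 listed at 0. In VCaP ERα CLDN8 came first (144 RPKM), then CLDN12 (32.9 RPKM), CLDN4 (9.12 RPKM), CLDN7 (5.29 RPKM) and CLDN3 (5.13 RPKM), and the other 5 members were below 1 RPKM. In VCaP ERα CLDN7 and CLDN3 stood close together, as did CLDN23 (0.437 RPKM) and CLDN9 (0.429 RPKM), and with no replicates the order of neighbours cannot be judged against a spread. CLDN3 was at rank 185 of the 25932 entries by level in VCaP and at rank 5000 in VCaP ERα. CLDN8 was at rank 173 in VCaP ERα.

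**Figure D1:**
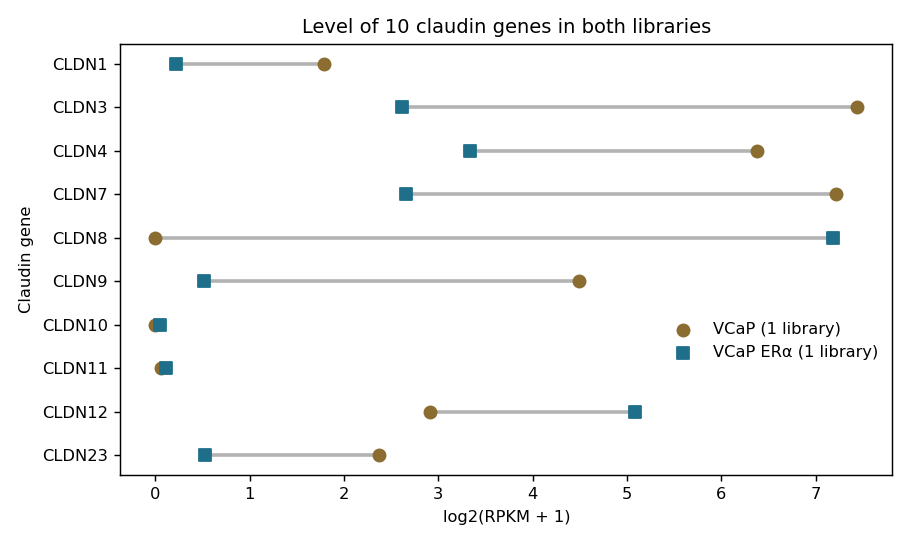
Level of each claudin gene on the log2(RPKM + 1) axis, with a circle for the VCaP library, a square for the VCaP ERα library and a grey line between them. CLDN3, CLDN7, CLDN4 and CLDN9 lie to the right in VCaP, CLDN8 and CLDN12 lie to the right in VCaP ERα, and CLDN10 and CLDN11 sit near 0 in both.

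Of the 10 members, 2 had a log2 ratio above 2 and 4 had one below -2. Over all entries 2.27% were above 2 (588 entries) and 6.56% were below -2 (1701 entries). Among the 13954 entries with at least 1 RPKM in either library the shares were 4.21% and 12.2%. After quantile normalization 3.84% of all entries were above 2 and 3.84% below -2, and after centring on the median of expressed entries 4.77% and 3.35%, while the 2 and 4 members stayed the same in number under both scalings. At limits of 1 and -1 the members numbered 2 and 6, beside 9.16% and 18.5% of all entries and 17% and 34.3% of those with at least 1 RPKM in either library. The members were chosen with earlier results known. The study's own list of raised genes from these libraries holds CLDN8 and numbers 588, as do the entries above 2 here. CLDN12 is among those entries too, at rank 465 from the top. The counts of members are therefore not independent evidence of a direction. The median log2 ratio of the members was -1.71, against 0 over all entries and -0.50 over those with at least 1 RPKM in either library.

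**Figure D2:**
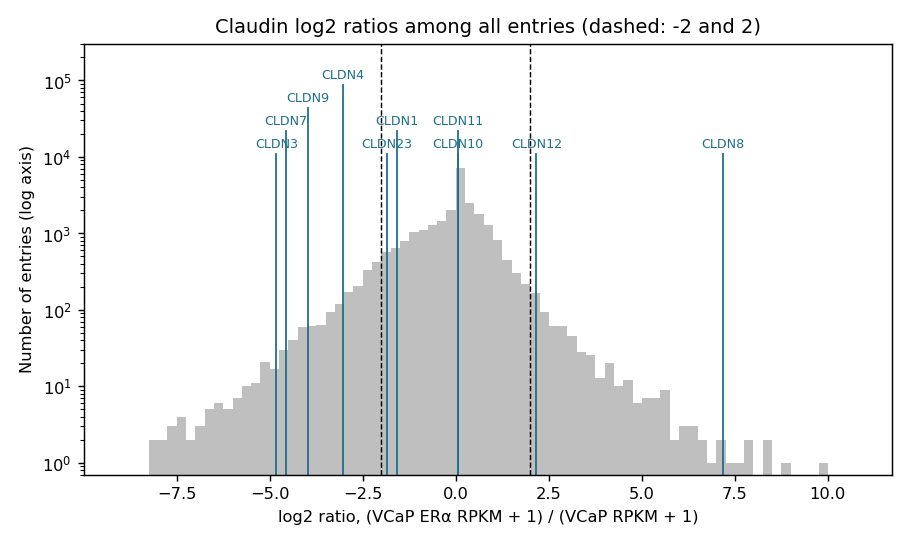
Number of entries by log2 ratio in grey (logarithmic vertical axis, all 25932 entries), with a line for each claudin gene and dashed lines at the limits of -2 and 2. CLDN8, at 7.18, stands far in the upper tail, and CLDN3, at -4.82, and CLDN7, at -4.56, in the lower tail.

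CLDN3, CLDN4 and CLDN7 held most of the claudin RNA of the VCaP library. CLDN3, a sealing claudin, stood at 173 and 5.13 RPKM, 33.6-fold lower in VCaP ERα, with a log2 ratio of -4.82. CLDN7, which forms a complex with the adhesion molecule EPCAM, had 147 and 5.29 RPKM, 27.8-fold lower, with a log2 ratio of -4.56. Their levels thus stayed close to each other in both libraries, with a ratio of CLDN3 to CLDN7 of 1.17 in VCaP and 0.971 in VCaP ERα. CLDN4, which acts on the passage of sodium or chloride depending on the epithelium, had 82.3 and 9.12 RPKM, 9.02-fold lower, with a log2 ratio of -3.04. CLDN4 was therefore the third in level in both libraries but the highest of these genes in VCaP ERα, where the ratio of CLDN3 to CLDN4 was 0.562, against 2.10 in VCaP. CLDN3 ranked 93 and CLDN7 ranked 123 from the lowest log2 ratio among all entries, and CLDN4 ranked 545.

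CLDN9, CLDN23 and CLDN1 were lower members of the same direction. CLDN9, which hearing depends on, had 21.4 and 0.429 RPKM, the largest fold among members measured above 0 in both libraries, 50.0-fold lower, with a log2 ratio of -3.97. CLDN23, one of the non-classic claudins, had 4.16 and 0.437 RPKM, 9.53-fold lower, with a log2 ratio of -1.84. CLDN1, which seals the epidermal barrier and is a co-receptor of hepatitis C virus, had 2.46 and 0.162 RPKM, 15.1-fold lower, with a log2 ratio of -1.57. CLDN23 and CLDN1 did not reach the limit of -2 with 1 RPKM added, and reached it with 0.1 RPKM added, at -2.99 and -3.29. CLDN1 lay 15.1-fold lower and CLDN4 only 9.02-fold lower on the unadjusted values, so the order of their log2 ratios is set by the added 1 RPKM.

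CLDN8 and CLDN12 went the other way. CLDN8, a sealing claudin of the distal nephron and other tight epithelia, was listed at 0 in VCaP and had 144 RPKM in VCaP ERα (log2 ratio 7.18, ninth from the top among all entries), and no fold is given against a listed 0. CLDN12, an atypical claudin whose tail lacks the usual PDZ-binding end and which has been linked to calcium transport, had 6.54 and 32.9 RPKM, 5.03-fold higher, with a log2 ratio of 2.17. CLDN12 was the only member above 5 RPKM in both libraries apart from CLDN3, CLDN4 and CLDN7. It stood just above the limit of 2, and CLDN23, at -1.84, was the nearest member inside the limits on the other side.

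CLDN10 and CLDN11 were near 0. CLDN10, which forms ion channels in kidney and glands, was listed at 0 in VCaP and had 0.0336 RPKM in VCaP ERα. CLDN11, the claudin of myelin and of the Sertoli cell barrier, had 0.0431 and 0.0829 RPKM. Their log2 ratios of 0.05 and 0.05 turned to -0.03 and -0.22 after quantile normalization, so no direction is given for either.

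The files carry no read counts, but low values recurred in steps. Among single-transcript entries spanning under 3000 bp, the 2 commonest products of RPKM and span in bp were 97.2 (57 entries) and 145.6 (49 entries) in VCaP, and 111.2 (95 entries) and 94.7 (74 entries) in VCaP ERα, so the steps were of like size. If such a step is what 1 fragment is worth, and if the span of CLDN8 (1989 bp) is all exon, 1 fragment of CLDN8 would give 0.0489 to 0.0732 RPKM in VCaP, where it was listed at 0. On the same reading the VCaP ERα level would be 8.88 to 10.4 steps for CLDN9, 7.66 to 9.0 steps for CLDN23 and 58.8 to 69.0 steps for CLDN3. The levels of CLDN9 and CLDN23 would then rest on few fragments, fewer than that of CLDN3. CLDN1, CLDN10 and CLDN11 were lower still in VCaP ERα, and their steps were not computed because their entries span more than 3000 bp. As more than 1 step recurred per library, whole reads could not be recovered.

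Summed over the 10 genes the levels came to 437 and 198 RPKM, 2.21-fold lower in VCaP ERα. This was 0.163% of the summed RPKM of all entries in VCaP and 0.10% in VCaP ERα. The make-up differed more than the sum. CLDN3 held 39.5% of the claudin sum in VCaP, CLDN7 33.7% and CLDN4 18.8%, together 92.1%, against 9.88% in VCaP ERα. CLDN8 held 72.9% and CLDN12 16.6% of the sum in VCaP ERα, together 89.5%, against 1.5% in VCaP. CLDN9 held 4.91% in VCaP and 0.217% in VCaP ERα.

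**Figure D3:**
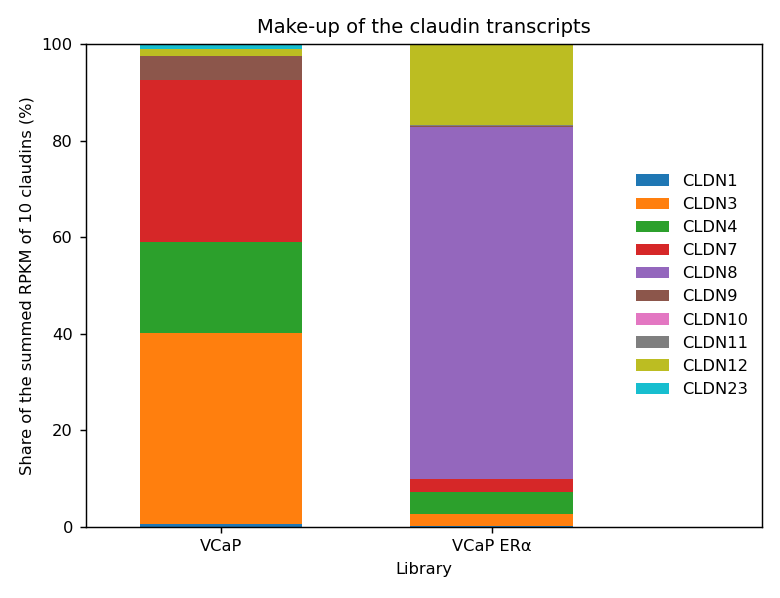
Share of the summed RPKM of the 10 claudin genes held by each gene (vertical axis, percent) in the VCaP and the VCaP ERα library. CLDN3, CLDN7 and CLDN4 fill 92.1% of the VCaP bar, and CLDN8 and CLDN12 fill 89.5% of the VCaP ERα bar.

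The other 11 claudin symbols of the files were low in both libraries, and 0 of them passed either limit. As none exceeded 2.09 RPKM, the added 1 RPKM kept every log2 ratio within the limits, so this count was fixed by the low levels. With 0.1 RPKM added 3 of them were above 2. Only CLDN15, a channel for sodium in the intestine, reached 1 RPKM, with 1.46 and 2.09 RPKM. CLDN14, a claudin of kidney and inner ear, was listed at 0 in VCaP and had 0.923 RPKM in VCaP ERα. CLDN6, a close relative of CLDN9 that lies 207 bp from it, had 0.177 and 0.522 RPKM, a log2 ratio of 0.37 that turned to -0.07 after quantile normalization, so no direction is given. CLDN19, CLDN5 and CLDN2 were listed at 0 in VCaP and had 0.410, 0.312 and 0.0574 RPKM in VCaP ERα, CLDN18 had 0.0535 and 0.240 RPKM, and CLDN22 had 0.323 and 0.0821 RPKM. The sign of CLDN2 and CLDN18 also turned after quantile normalization, and that of CLDN22 after centring. CLDN16, CLDN17 and CLDN20 were listed at 0 in both. How reads that match more than 1 claudin were counted is not given in the sources used here. Of 8 sealing claudins (CLDN1, CLDN3, CLDN5, CLDN8, CLDN11, CLDN14, CLDN18 and CLDN19) 1 was above 2 and 1 below -2, beside 2.27% and 6.56% of all entries. Their sum of 175 and 151 RPKM was nearly all CLDN3 in VCaP and CLDN8 in VCaP ERα. The 5 channel claudins (CLDN2, CLDN10, CLDN15, CLDN16 and CLDN17) summed to only 1.46 and 2.18 RPKM.

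Position was set beside the values, since some members are neighbours (coordinates are those of the files, build hg18). CLDN3 (chr7:72821263-72822536) and CLDN4 (chr7:72880010-72884951) are next to each other with a gap of 57474 bp, and both were lower in VCaP ERα. On the far side of CLDN3 the entry of ABHD11 was lower as well (71.8 and 4.82 RPKM, log2 ratio -3.64), whereas STX1A (-0.84), WBSCR22 (-0.74) and WBSCR27 (-0.75) stayed near the median of expressed entries. CLDN7 (chr17:7103946-7107236) overlaps C17orf81, which had 4.07 and 4.85 RPKM, and none of its 6 nearest entries passed a limit. CLDN8 (chr21:30508201-30510189) lies between CLDN17 and keratin-associated protein genes that were listed at 0 in both libraries, so none of them shared its level. CLDN12 (chr7:89850971-89883204) lies 146043 bp from STEAP2, a metalloreductase gene of prostate epithelium, which had 0.0782 and 229 RPKM (log2 ratio 7.74), and C7orf63 between them had 0.207 and 4.23 RPKM (2.12). GTPBP10, which overlaps CLDN12, had 2.37 and 2.31 RPKM. CLDN9 (chr16:3002207-3004507) lies near TNFRSF12A (133 and 0.579 RPKM, log2 ratio -6.41) and HCFC1R1 (18.6 and 1.37 RPKM, -3.05). CLDN1 (chr3:191506187-191522909) lies next to CLDN16, with TP63 2 entries away on the other side (3.79 and 0.0400 RPKM, -2.20).

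The remaining members had neighbours of either kind. CLDN11 (chr3:171619359-171634579) was near 0 although SKIL beside it had 37.2 and 4.19 RPKM (log2 ratio -2.88). CLDN10 (chr13:94883859-95029907) overlaps the entry of DZIP1 and lies beside ABCC4 (11.9 and 47.0 RPKM, 1.89). CLDN23 (chr8:8597076-8599027) lies between PRAGMIN (7.54 and 0.842 RPKM, -2.21) and MFHAS1 (6.24 and 3.31 RPKM, -0.75). Over 54 distinct neighbours that are no member, taken 3 to each side, 2 were above 2 (3.70%) and 7 below -2 (13.0%), with a median of -0.01, beside 2.27% and 6.56% of all entries. Whether the counting used the strand is not stated, so reads of CLDN7, CLDN10 and CLDN12 could be shared with the overlapping entries.

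**Figure D4:**
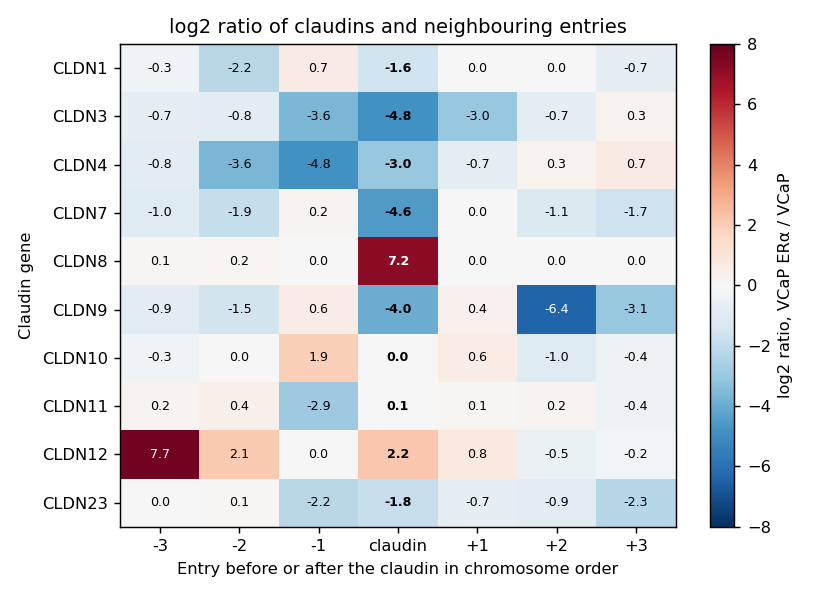
Log2 ratio (colour and printed value) of each claudin gene in the middle column and of the 3 entries before and after it in chromosome order. CLDN8 at 7.18 has neighbours near 0, whereas CLDN3, CLDN4 and the entry of ABHD11 form a run of negative values, and CLDN12 shares its positive sign with STEAP2 at 7.74.

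The entries most like CLDN8 and CLDN3 were found by Euclidean distance on the log2(RPKM + 1) values of both libraries. For CLDN8 they were the entry of TARP (0.0591 and 134 RPKM, distance 0.13), PRAC (listed at 0 and 164 RPKM, 0.18) and ERG (0.0764 and 104 RPKM, 0.48). For CLDN3 they were CLDN7 (distance 0.23), LGALS3BP (145 and 5.63 RPKM, 0.27) and HEATR6 (161 and 3.88 RPKM, 0.34). CLDN7 was thus the nearest of all other entries to CLDN3, a description that rests on 2 libraries.

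The other membrane proteins of tight junctions were lower in VCaP ERα in 8 of 12 cases, though ESAM among them turned positive after centring. Of these 12 genes 1 was above 2 and 3 were below -2, with a median log2 ratio of -1.42. Over all entries 2.27% were above 2 and 6.56% below -2, and 4.21% and 12.2% of those with at least 1 RPKM in either library. After quantile normalization or centring 2 of the 12 genes were below -2, beside 3.84% and 3.35% of all entries. LSR, an angulin that marks tricellular junctions, had 66.6 and 2.91 RPKM (log2 ratio -4.11). F11R, the adhesion molecule JAM-A, had 54.5 and 3.28 RPKM (-3.70), and MARVELD3 had 5.17 and 0.466 RPKM (-2.07). OCLN, which encodes occludin, had 11.3 and 2.49 RPKM (-1.82), and MARVELD2, which encodes tricellulin, had 18.4 and 5.64 RPKM (-1.55), so both were lower without reaching the limit. The other 4 were higher. CXADR, the coxsackievirus and adenovirus receptor, was the 1 above 2, with 0.713 and 89.4 RPKM (5.72), the highest level of the list in VCaP ERα. The junctional adhesion genes IGSF5 (0.376 and 2.26 RPKM, 1.24) and JAM3 (listed at 0 and 1.12 RPKM, 1.08) stayed within the limits, and JAM2 was low in both (0.101 and 0.114 RPKM, 0.02, turning to -0.30 after quantile normalization). CXADR, IGSF5 and JAM2 lie on chromosome 21, as CLDN8 does. That chromosome also holds TMPRSS2 (4.51), which was higher in VCaP ERα, and TFF1 (-7.64) and TFF3 (-4.21), which were lower. A part of the chromosome in these values was not tested.

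Scaffold and polarity genes were mixed. Of 21 genes 0 were above 2 and 7 were below -2, with a median log2 ratio of -0.73. Over all entries 2.27% were above 2 and 6.56% below -2, and 4.21% and 12.2% of those with at least 1 RPKM in either library. After quantile normalization 3 of the 21 genes were above and 5 below, beside 3.84% and 3.84% of all entries. After centring the genes numbered 3 and 4, beside 4.77% and 3.35% of all entries. TJP1, which encodes ZO-1, had 24.9 and 17.3 RPKM (-0.50), close to the median of expressed entries. Its paralog TJP3 (11.8 and 0.651 RPKM, -2.95) was below the limit. The lowest of the list were PARD6B, a polarity protein (116 and 2.64 RPKM, -5.01), and AMOTL2, an angiomotin (47.9 and 0.961 RPKM, -4.64). PARD3, another polarity protein, had 26.2 and 5.13 RPKM (-2.15). Members higher in VCaP ERα included AMOTL1 (2.64 and 11.8 RPKM, 1.81), CGNL1, which encodes paracingulin (0.808 and 4.82 RPKM, 1.69), and MPP5, the PALS1 scaffold, the most abundant of the list there (6.17 and 18.7 RPKM, 1.46).

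**Figure D5:**
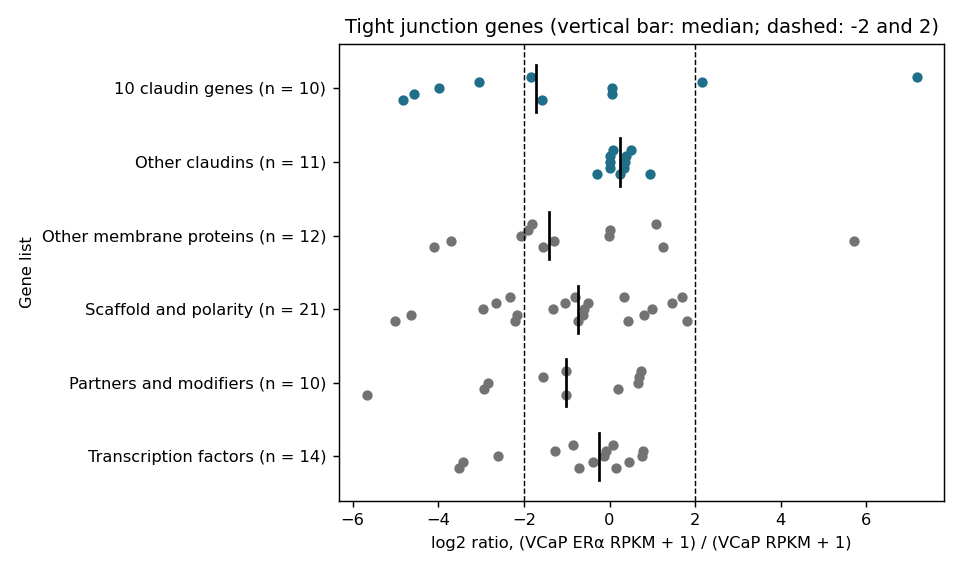
Log2 ratio of each gene (points), by list, with the median of each list as a vertical bar and dashed lines at -2 and 2. The 10 claudin genes spread from -4.82 to 7.18. The other 11 claudins lie between -0.29 and 0.94, at levels too low to pass a limit with 1 RPKM added.

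Among 10 partners and modifiers of claudin proteins 0 were above 2 and 3 were below -2, with a median log2 ratio of -1.01. Beside them stand 2.27% and 6.56% of all entries, and 4.21% and 12.2% of those with at least 1 RPKM in either library. EPCAM, given above, was higher in VCaP ERα (0.69), the opposite direction to its partner CLDN7 (-4.56). EPHA2, a kinase that phosphorylates CLDN4, had 13.8 and 0.949 RPKM (-2.93). SPINT1, an inhibitor of the matriptase that cleaves EPCAM, had 69.5 and 8.92 RPKM (-2.83), and the matriptase gene ST14 had 33.1 and 16 RPKM (-1.01). The tetraspanin CD9 was the most abundant of the list in VCaP ERα (156 and 260 RPKM, 0.73) and SPINT2 in VCaP (300.0 and 102 RPKM, -1.55).

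Of 14 transcription factors known to act on claudin genes 0 were above 2 and 3 were below -2, with a median log2 ratio of -0.25. Beside them stand 2.27% and 6.56% of all entries, and 4.21% and 12.2% of those with at least 1 RPKM in either library. The 3 factors below -2 were KLF5 (21.8 and 0.978 RPKM, -3.53), ELF3 (28.7 and 1.78 RPKM, -3.42) and GRHL3 (7.83 and 0.452 RPKM, -2.60), all factors of epithelial cells. GRHL2, an activator of CLDN4, was the most abundant of the list in both libraries (33.0 and 13.1 RPKM, -1.27). The repressors of epithelial genes were low throughout: SNAI2 had 1.04 and 0.567 RPKM, SNAI1 0.402 and 0.334 RPKM, ZEB1 0.0873 RPKM and a listed 0, ZEB2 a listed 0 and 0.112 RPKM, and TWIST1 a listed 0 and 0.0600 RPKM. Their part in the claudin levels was not tested. OVOL2, a factor of epithelial cells, was higher in VCaP ERα (4.26 and 7.96 RPKM, 0.77).

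The mouse files hold poly-A RNA of fibroblasts from E13.5 embryos of C57BL/6 mice at passages 2 to 3, with 1 library of wild-type and 1 of NEAT1 knockout (KO) cells. They were normalised apart from the human files, so levels are compared only within mouse, with wild type given first. Neat1, the targeted gene, had 29.5 and 2.01 RPKM. The fibroblast markers Vim (3151 and 2448 RPKM) and Col1a1 (1477 and 1874 RPKM) were high, and the epithelial genes Cdh1 and Ocln were listed at 0 in both. Of 23 claudins only Cldn12 reached 1 RPKM, with 13.6 and 11.3 RPKM (log2 ratio -0.25). The other 22 had at most 0.337 and 0.400 RPKM, both values those of Cldn22, and 7 were listed at 0 in both, Cldn8 and Cldn23 among them. Cldn7 had 0.212 and 0.0623 RPKM, Cldn3 0.0759 and 0.0268 RPKM, and Cldn4 0.0353 and 0.0187 RPKM. Another 3 symbols numbered as claudins are paired in the files with CLDND1, TMEM114 and TMEM235 and were left out. CLDN12 was thus the only member that reached 1 RPKM in all 4 libraries of the series.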

How the data were processed

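Strand-specific RNA-sequencing libraries of VCaP and VCaP ERα cells and poly-A libraries of mouse fibroblasts, 1 per condition, were used. The authors deposited RPKM values per entry, with no normalisation between libraries stated. The submitters' processing notes name CASAVA 1.8 and the builds hg18 and mm10, and the aligner and counter are not given in the sources used here. Conditions came from sample titles. The entry of highest mean RPKM stood for each symbol. Log2 ratios used a pseudocount of 1 RPKM, as in the study's own list of raised genes, and every entry was kept. The depth per library is unknown, so no interval was computed. Members, gene lists and markers were chosen with earlier results of these data known. Named genes were the members, all other claudin symbols, the lists with their extreme and most abundant genes, 3 neighbours on each side, and the 3 nearest entries to the most raised and most lowered member. Further genes, such as TJP1 and SNAI1, were named for their role, and some listed genes are not reported here. Of 13 listed membrane proteins 12 were found, all but C1orf32. The alternatives were a pseudocount of 0.1 RPKM, a minimum of 1 RPKM, centring, quantile normalisation, another entry per symbol and a limit of 1. The scripts were tested on simulated data. Tables were made in Python 3.11.15 with pandas 2.3.3 and numpy 2.4.6, and plots with matplotlib 3.10.9.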

Additional observations from a re-analysis of the deposited data

How the results depend on the processing

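The 2 claudins above 2 and the 4 below -2 were the same in number under centring, quantile normalization and a minimum of 1 RPKM, which left out CLDN10 and CLDN11. With a limit of 1 the numbers were 2 and 6, beside 9.16% and 18.5% of all entries. They were 2 and 6 with 0.1 RPKM added as well. The share of all entries was not computed for that setting, so counts with 0.1 RPKM added cannot be judged against it. CLDN8 ranged from 7.18 to 10.49, CLDN12 from 2.17 to 2.85, CLDN3 from -5.05 to -4.21, CLDN7 from -4.77 to -3.94, CLDN9 from -5.35 to -3.38, CLDN4 from -3.16 to -2.39, CLDN23 from -2.99 to -1.25 and CLDN1 from -3.29 to -0.98. CLDN10 and CLDN11 changed sign after quantile normalization. With 0.1 RPKM added 3 of the 11 other claudins were above 2, all below 1 RPKM in both libraries, and of the other membrane proteins 3 were above 2 and 5 below -2. Each member stood on 1 entry, so another choice of entry changed none of them. The shares of CLDN3, CLDN4 and CLDN7 together moved to 91.6% and 9.66% when all claudin symbols were summed. No paired analysis was possible because each group holds 1 library, and leaving out a library was not possible either. Without read totals, values near 0 cannot be separated from absence.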
